A study of Homo sapiens with 4 samples.

Results

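Of 10 genes for E-box-binding transcription factors, BHLHE40 and BHLHE41 alone carried USF1 ChIP-seq peaks at their 5' ends in both lists from Huh7 cells. Over all protein-coding genes, 11.5% had a shared peak within 1 kb of either end, 5' or 3'. The caller's false discovery rates in list 1 were 73.53% for the BHLHE40 peak and 100% for the BHLHE41 peak. The count of 2 genes became 1 or 0 when a stricter peak threshold, a stricter overlap, summits in place of centres or a limit of 500 bp was used. The 10 genes were taken by name from 20033 protein-coding genes of the RefSeq annotation (GRCh38.p14): USF1, USF2, USF3, TFEB, TFE3, TFEC, MITF, MYC, BHLHE40 and BHLHE41. Peaks were assigned to a gene when their centre lay inside it or within 100 kb of it. USF1 itself had no peak within 50 kb in either list. A nearer peak than that of USF1 was found at 60.9% of protein-coding genes in list 1 and at 78.1% in list 2. MYC had none within 100 kb in list 1, where 68.1% of all genes had one.

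The cells were Huh7, a human hepatocellular carcinoma line, made to overexpress USF1 according to the design text of the series. The antibody was against the FLAG tag per the labels' protocols, so the measurement reads the tagged protein at its raised level. The 4 libraries were 2 immunoprecipitates (IP 1 and IP 2) and 2 inputs of the same cell line. Each IP was compared with the input of its own number, which gave list 1 with 14300 peaks and list 2 with 27325 peaks. The labels do not say whether the replicates came from separate cultures, and libraries from IgG or from cells without the tag were not analysed here.

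USF1 is a basic helix-loop-helix leucine zipper protein that binds DNA as a dimer with itself or with USF2, at the palindromic E-box CACGTG. Several other families read the same letters. MYC binds as a partner of MAX, the MiT/TFE factors (TFEB, TFE3, TFEC and MITF) control lysosomal and autophagy genes, and the repressors BHLHE40 and BHLHE41 act in the circadian clock and in responses to low oxygen. Factors that share a recognition sequence can occupy the same sites, and a factor can act on its own gene or on those of its relatives.

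The promoter sequences of 4 of the genes show where that hexamer stands. They are the 250 bases before the annotated start, read 5' to 3' on the strand of the gene, from RefSeq on GRCh38.p14, and capitals mark CACGTG. BHLHE40 (chr3:4979187-4979436, plus strand) and BHLHE41 (chr12:26125038-26125287, minus strand) are shown because peaks of both lists covered them. TFE3 (chrX:49043358-49043607, minus strand) had a peak in list 2 alone, and USF1 (chr1:161045978-161046227, minus strand) is the gene of the factor itself.
BHLHE40: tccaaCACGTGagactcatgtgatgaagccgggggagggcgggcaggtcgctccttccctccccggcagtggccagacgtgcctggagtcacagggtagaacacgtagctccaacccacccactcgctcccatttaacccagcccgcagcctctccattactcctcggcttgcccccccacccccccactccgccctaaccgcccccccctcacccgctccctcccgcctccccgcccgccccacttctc
BHLHE41: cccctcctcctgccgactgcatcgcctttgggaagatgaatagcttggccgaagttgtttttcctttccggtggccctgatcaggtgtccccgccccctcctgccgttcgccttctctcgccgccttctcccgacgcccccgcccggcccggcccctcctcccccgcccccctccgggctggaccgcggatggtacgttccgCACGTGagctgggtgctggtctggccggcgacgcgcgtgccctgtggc
TFE3: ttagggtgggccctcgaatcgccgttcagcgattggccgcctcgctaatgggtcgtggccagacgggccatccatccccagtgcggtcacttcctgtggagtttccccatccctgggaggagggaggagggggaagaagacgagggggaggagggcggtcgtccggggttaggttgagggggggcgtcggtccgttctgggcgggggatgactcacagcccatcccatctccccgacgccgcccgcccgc
USF1: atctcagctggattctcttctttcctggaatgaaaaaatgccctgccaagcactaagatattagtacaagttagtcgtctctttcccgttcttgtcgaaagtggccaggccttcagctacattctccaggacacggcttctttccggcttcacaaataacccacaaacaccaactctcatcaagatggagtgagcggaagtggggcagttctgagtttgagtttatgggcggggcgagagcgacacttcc

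The 2 promoters with peaks in both lists were also the 2 that held CACGTG. In the promoter table, which gives windows from 250 bases before to 50 bases after a start, 9 of the 10 genes had 15 windows in all. CACGTG was found in 2 of these 15 windows (13.3%, 95% Wilson interval 3.74 to 37.9%), and in 8.34% of the 22198 windows of protein-coding genes. The interval treats the 15 windows as independent, although MITF and TFEB had 3 each and USF1 and TFEC 2 each. The palindrome reads the same on both strands. In BHLHE40 it began 245 bases before the start, at positions 4979192 to 4979197 of chromosome 3, with the flanks ccaaCACGTGagac. In BHLHE41 it began 48 bases before the start, at positions 26125080 to 26125085 of chromosome 12, with the flanks tccgCACGTGagct. Each was followed by the bases ag, and the 8-letter forms CACGTGAC and GTCACGTG occurred in 0 of the 15 windows, against 3.08% of all windows.

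A pair of near forms of the hexamer, CATGTG and its reverse complement CACATG, were searched too. BHLHE40 held CATGTG 234 bases before its start, and USF2 held CACATG 46 bases before its start, at 35268916 to 35268921 of chromosome 19. The USF2 hexamer lay in no peak of either list. Over all protein-coding promoter windows, CACGTG was present in 28.2% of the 2490 overlapped by a peak of each list, in 8.81% of the 3859 overlapped in list 2 alone, in 7.25% of the 676 overlapped in list 1 alone and in 5% of the 15173 overlapped in neither. By window, list 1 peaks overlapped 2 of the 15 (13.3%), where 14.3% of all windows were overlapped, and list 2 peaks 5 of the 15 (33.3%), where 28.6% were. Both lists did so at 2 of the 15 (13.3%), against 11.2% of all windows, so these shares were near the background, and 3.17% of all windows were overlapped in both lists and held CACGTG. A match is a description of letters and does not show which base the factor contacts.

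Across the 10 genes, 26 peaks of list 1 and 50 peaks of list 2 lay within 100 kb. In list 1, 8 of the 10 genes had at least 1 such peak, where 68.1% of all protein-coding genes did. In list 2 all 10 had one, where 86.6% of all genes did. A shared peak, meaning one with at least 1 bp in common between the lists, lay within 100 kb of 7 genes, against 50.3% of all genes. TFEB, TFEC and MYC were the 3 without one. Having a peak somewhere within 100 kb was therefore common across the genome, and these counts alone do not set the 10 genes apart.

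**Figure D1:**
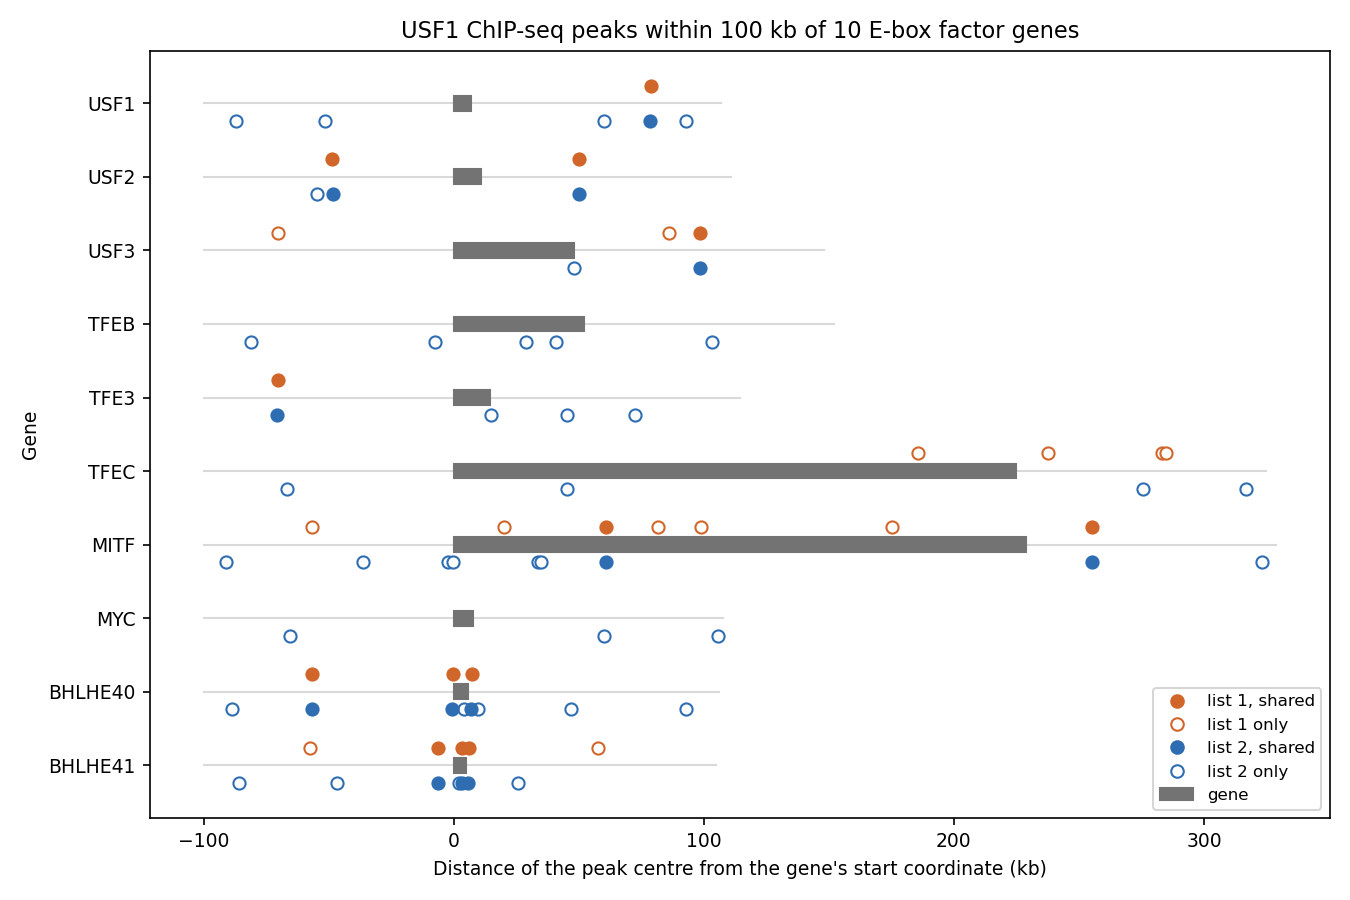
Peaks of list 1 (orange, above each line) and list 2 (blue, below) around the 10 genes. The horizontal axis is the distance of the peak centre from the start coordinate of the gene in kb, grey boxes are the genes, and filled points are shared peaks. Shared peaks lie at or beside BHLHE40 and BHLHE41 and inside MITF. For USF1, USF2, USF3 and TFE3 they lie at least 39271 bp from the gene. BHLHE40 and MITF each also have a more distant shared peak, 56602.5 bp and 26473 bp from the gene in list 1.

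Fewer genes had peaks close by. With the limit set at 1 kb from either end of the gene, 2 genes had a peak in list 1 (BHLHE40 and BHLHE41, against 14.9% of all genes). In list 2 there were 5 (BHLHE40, BHLHE41, MITF, TFE3 and USF3, against 30.1%). A shared peak at that distance was present at 2 of 10 genes, against 11.5% of all genes. BHLHE41 left this count when summits replaced centres or the limit was 500 bp, and BHLHE40 left it when an overlap of 50% of each peak or summits within 100 bp were required. When an FDR of at most 5%, a fold of at least 8 or a score of at least 100 was required in each list, 0 of the 10 genes had such a peak. Peaks inside the gene were found at 3 genes in list 1 (17.9% of all genes) and at 6 in list 2 (35.7%), and a shared peak inside the gene at 2, MITF and BHLHE41 (10.1%).

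By fold, the peaks near these genes had medians close to those of their whole lists. Fold, which the authors' caller computed at the summit as IP tags over expected background tags, ranged from 3.79 to 8.88 in list 1 (median 5.44) and from 2.78 to 8.94 in list 2 (median 5.24). The medians of all peaks were 5.83 and 5.6. Tag counts, which are IP reads inside the peak and are not scaled, ranged from 25 to 259 in list 1 and from 24 to 412 in list 2. In list 1 the medians were 43.5 tags and 815 bp of width, against 44 tags and 761 bp over the whole list. In list 2 they were larger than over the whole list, at 68 tags and 1081 bp against 49 tags and 873 bp. The authors' false discovery rate (FDR), which the caller took from a run in which input served as IP, was 13.49% or more for every one of the 26 list 1 peaks and 100% for 17 of them. In list 2, 17 of the 50 peaks had an FDR of at most 5%. The same threshold was passed by a peak within 100 kb of 9 of the 10 genes in list 2, all but MITF (63.6% of all genes), and of 0 in list 1 (5.86%).

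BHLHE40 encodes a bHLH-Orange repressor of clock and differentiation genes. The gene lies at 4979437 to 4985323 of chromosome 3. It had 3 peaks within 100 kb in list 1 and 8 in list 2, and all 3 from list 1 had a partner in list 2. At 14.6 peaks per Mb in list 1 and 38.9 in list 2, its surroundings were denser than those of 90.6% and 95.3% of protein-coding genes.

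The peak over the BHLHE40 5' end was the highest of all 50 list 2 peaks by fold and by score. In list 1 it spanned 4978434 to 4979602 with 84 tags, 4.36-fold and an FDR of 73.53%. In list 2 it spanned 4976770 to 4980903 with 283 tags, 8.94-fold and an FDR of 0. The list 2 peak was 4134 bp wide against 1169 bp, so the whole of the list 1 peak was 28.3% of the list 2 peak. Per kb of peak the tags were close, at 71.9 and 68.5, so the larger tag count of list 2 went with its larger width. Ranked by score within their own lists, the peak stood above 74.6% of list 1 and above 99.1% of list 2.

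The E-box of the BHLHE40 promoter lay inside both peaks. Its middle was 76.5 bp from the list 2 summit and 429.5 bp from the list 1 summit, and the summits were 353 bp apart, the widest gap among the 13 shared peaks. The centre of the peak was 419 bp before the 5' end in list 1 and 600.5 bp before it in list 2. Both centres lie in BHLHE40-AS1, a long non-coding RNA gene, so the peak cannot be given to BHLHE40 rather than to BHLHE40-AS1.

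A second shared peak lay past the 3' end of BHLHE40. In list 1 it spanned 4986310 to 4987453, 1558.5 bp from the gene, with 90 tags and 6.25-fold. In list 2 it spanned 4985690 to 4987244 with 89 tags and 3.94-fold, so tags were alike and fold was higher in list 1. The third shared peak was 56602.5 bp before the gene in list 1, inside BHLHE40-AS1, with 29 tags and 6.92-fold, and 40 tags and 8.85-fold in list 2. Its summits were 6 bp apart, the closest agreement of the 13. The other 5 list 2 peaks near BHLHE40 had no partner in list 1. The tallest of them, at 5025371 to 5027270, had 130 tags and 6.6-fold at an FDR of 0.25%.

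BHLHE41, the paralogue of BHLHE40, lies at 26120030 to 26125037 of chromosome 12, and its 5' part overlaps SSPN, the sarcospan gene. It had 5 peaks within 100 kb in list 1 and 7 in list 2, of which 3 were shared. Its density was 24.4 peaks per Mb in list 1, above 98.1% of protein-coding genes, and 34.1 in list 2, above 92.9%. The 3 shared peaks lay before the 5' end, inside the gene and past the 3' end.

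**Figure D2:**
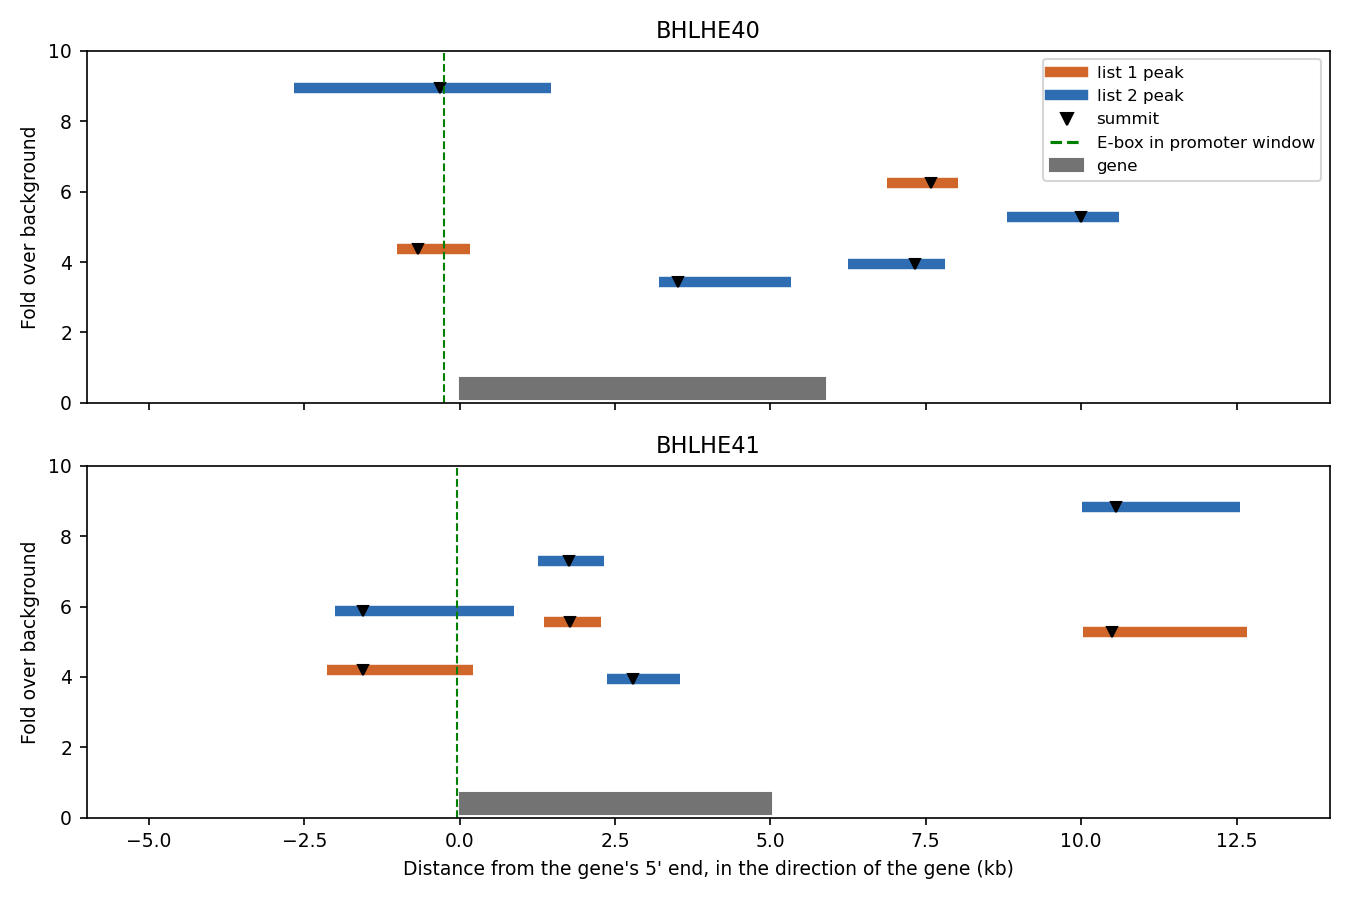
Peaks of list 1 (orange) and list 2 (blue) around the 5' ends of BHLHE40 and BHLHE41. The horizontal axis is distance from the 5' end in kb along the gene, the vertical axis is the authors' fold, triangles are summits and the dashed line is the CACGTG hexamer in the promoter window. The hexamer lies 76.5 bp from the list 2 summit at BHLHE40 and 1516.5 bp from it at BHLHE41.

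At the BHLHE41 5' end, the list 1 peak spanned 26124822 to 26127169 with 160 tags, 4.19-fold and an FDR of 100%. The list 2 peak spanned 26124157 to 26127049 with 206 tags, 5.87-fold and an FDR of 0.31%. The summits were 13 bp apart, so the 2 lists placed the highest point of the peak at the same spot. Counted from the 5' end, with bases before it negative, that spot was at -1549 bp in list 1 and at -1562 bp in list 2, while the promoter E-box was 1503.5 bp and 1516.5 bp from the summits. The hexamer was thus farther from the summits here than at BHLHE40 in each list. Both peaks lay inside SSPN (26121991 to 26234777), so they cannot be given to BHLHE41 rather than to SSPN.

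The shared peak inside BHLHE41 had 63 tags and 5.57-fold at 26122767 to 26123678 in list 1, and 98 tags and 7.3-fold at 26122712 to 26123774 in list 2. Its summits were 17 bp apart. Its FDR was 100% in list 1 and 0.65% in list 2, the same contrast as at the 5' end. SSPN also contains this peak, and its 5' end was the nearest gene end, at 1231.5 bp in list 1 and 1252 bp in list 2. An unshared list 2 peak inside BHLHE41 (64 tags, 3.94-fold) was 88.5 bp from that end, so peaks in this overlap cannot be given to one gene rather than the other.

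The peak past the BHLHE41 3' end held the most tags of any list 1 peak among the 26. It spanned 26112373 to 26115010, 6338.5 bp from the gene, with 259 tags, 5.29-fold and the lowest FDR of the 26, 13.49%. In list 2 it spanned 26112489 to 26115030 with 281 tags, 8.84-fold and an FDR of 0.12%. Both peaks were broad, 2638 bp and 2542 bp, and covered 95.6% and 99.2% of their widths in common. No gene of any class in the RefSeq table contained the peak centre.

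The USF genes carried shared peaks only at a distance. USF1 (161039251 to 161045977 of chromosome 1) had 1 peak within 100 kb in list 1 and 5 in list 2. The nearest centre was 72064.5 bp away in list 1 and 51396 bp away in list 2. In list 1, 60.9% of protein-coding genes had a nearer peak, and in list 2 78.1% did. The promoter windows of the 2 annotated USF1 starts held none of the 3 hexamers searched and were overlapped by no peak.

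Of the 5 list 2 peaks around USF1, 3 were within 1 kb of an end of another gene. The single shared one was at PFDN2, a subunit of the prefoldin chaperone, with 128 tags and 5.42-fold in list 1 and 101 tags and 5.21-fold in list 2. Its centre was 4.5 bp from an end of PFDN2 in list 1 and 252 bp from it in list 2. In list 2 alone, a peak of 223 tags and 3.77-fold lay 366.5 bp inside the 5' end of DEDD, a death effector domain protein, and one of 136 tags and 3.57-fold lay 861 bp from the 5' end of KLHDC9. Of the other two list 2 peaks, the one nearest to USF1 was 7356 bp from an end of F11R (69 tags, 3.66-fold), and the other was 2827 bp from the 5' end of ITLN2 (86 tags, 3.01-fold).

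USF2, the usual dimer partner of USF1, lies at 35268962 to 35279821 of chromosome 19. Both of its list 1 peaks had a partner among its 3 list 2 peaks, and none was nearer than 39271 bp. The peak whose nearest gene end was that of FAM187B, 48532 bp before the USF2 gene, had 56 tags and 4.89-fold in list 1 and 52 tags and 8.44-fold in list 2. The peak on the side of MAG, a myelin glycoprotein gene, had 82 tags and 8.01-fold in list 1 and 105 tags and 4.43-fold in list 2. Fold thus ordered these 2 peaks in opposite ways in the 2 lists, while tags per kb differed little (64.6 and 67.6 for the first, 85.8 and 78.5 for the second).

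USF3 lies at 113648385 to 113696642 of chromosome 3 and had a peak at its own 5' end in list 2 alone. That peak spanned 113695924 to 113697251 with 67 tags, 3.96-fold and an FDR of 15.56%, and its summit was at -92 bp from the 5' end. The nearest list 1 peak was 37702 bp from the gene. The shared peak near USF3 was 174.5 bp from an end of ATP6V1A, a subunit of the vacuolar proton pump. It had 159 tags and 5.1-fold in list 1 and 227 tags and 5.98-fold in list 2, with FDRs of 22.43% and 0.1%.

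**Figure D3:**
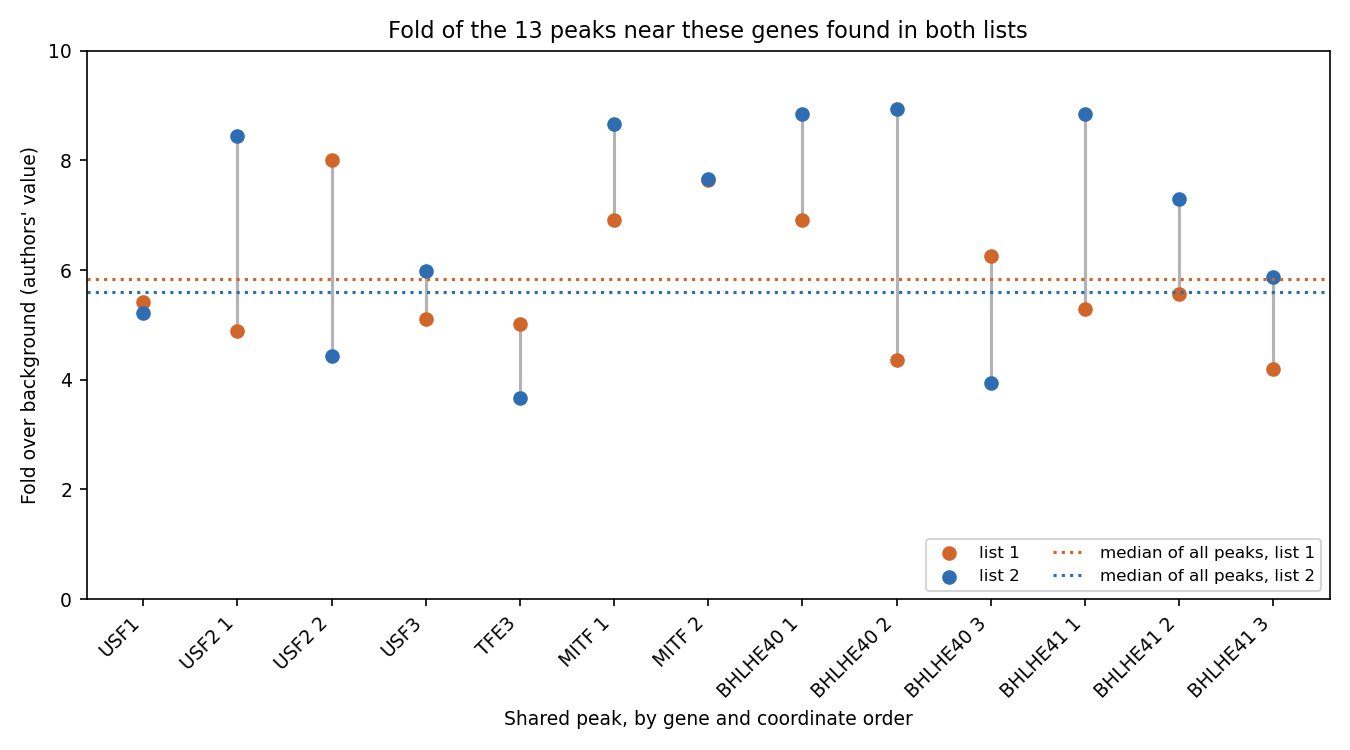
Authors' fold of the 13 shared peaks in list 1 (orange) and list 2 (blue), with dotted lines at the median fold of all peaks of each list. Peaks of one gene are numbered in coordinate order. Values run from 4.19 to 8.01 in list 1 and from 3.66 to 8.94 in list 2, and 9 of the 13 are higher in list 2.

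Over the 13 shared peaks, fold was higher in list 2 at 9 and in list 1 at 4. Median folds of the 13 were 5.42 (list 1) and 7.3 (list 2). Tags per kb were higher in list 2 at 7 and in list 1 at 6. They are not scaled for depth, and IP 1 kept more tags than IP 2 (47165647 against 43942638). Summits lay within 100 bp of each other at 10 of the 13, with a median gap of 49 bp. The FDR in list 2 was at most 5% at 7 of the 13. Shared peaks were 50% of the list 1 peaks near the 10 genes and 26% of the list 2 peaks, against 37.3% and 19.6% of all peaks in each list.

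The MiT/TFE genes, whose products switch on lysosome biogenesis when nutrients are short, were covered unevenly. TFEB, the best-known lysosomal regulator, lies at 41683978 to 41736223 of chromosome 6. It had 0 peaks within 100 kb in list 1, where the nearest was 118827.5 bp away, and 5 in list 2. Inside the gene were list 2 peaks of 86 tags and 3.98-fold and of 89 tags and 3.24-fold, with FDRs of 14.79% and 25.36%. The tallest of the 5 was at the 3' end of PRICKLE4, with 134 tags, 5.52-fold and an FDR of 0.75%. None of the 3 TFEB promoter windows was overlapped by a peak.

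TFE3 (49028726 to 49043357 of chromosome X) had the strongest 5' end peak among the genes covered in list 2 alone. It spanned 49042737 to 49044223 with 88 tags, 6.23-fold and an FDR of 0.73%, and its centre was 123 bp before the gene. In list 1 the nearest peak was 70464.5 bp away. The promoter sequence printed above holds no CACGTG, but it does not reach the summit of the list 2 peak, at -473 bp from the 5' end. Whether the rest of that peak holds the hexamer was not tested. The shared peak near TFE3 was 119.5 bp from the 5' end of OTUD5, a deubiquitinase gene, with 73 tags and 5.01-fold in list 1 and 57 tags and 3.66-fold in list 2. List 2 also had peaks at the 5' ends of its neighbours PRAF2 (71 tags, 8.36-fold) and WDR45, an autophagy gene (40 tags, 6.53-fold).

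MITF, the melanocyte regulator, lies at 69739464 to 69968332 of chromosome 3 and is a long gene of 228869 bp. It had the most peaks of the 10, 7 in list 1 and 9 in list 2, of which 2 were shared. Its density of 16.3 peaks per Mb in list 1 was above 93.3% of genes, and its 21 per Mb in list 2 above 77.7%. The shared peak inside the gene, 61027 bp past the 5' end, had 32 tags and 6.92-fold in list 1 and 29 tags and 8.67-fold in list 2. The other, 26473 bp past the 3' end, had 37 tags and 7.65-fold and 46 tags and 7.66-fold. The median list 1 peak had 44 tags and the median list 2 peak 49, so each of these tag counts was below its list's median. Each of the folds was above its list's median, which was 5.83 in list 1 and 5.6 in list 2.

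At the 5' end of MITF, list 2 alone had a peak of 55 tags at 3.2-fold and an FDR of 16.93%, centred 109 bp before the gene. It overlapped the first of the 3 MITF promoter windows, and none of the 3 held any of the hexamers. No list 2 peak near MITF had an FDR of 5% or less, the only gene of the 10 for which this was so.

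TFEC, at 115935152 to 116159896 of chromosome 7, is the other long gene, with 224745 bp. It had 4 peaks in each list and none of them overlapped. Inside the gene, list 1 had a peak of 35 tags and 8.37-fold with an FDR of 100%, and list 2 a peak of 55 tags and 6.69-fold with an FDR of 4.52%, at another place. The neighbouring gene TES held 2 of the list 1 peaks and 2 of the list 2 peaks, 1 of them 149 bp from its 5' end (57 tags, 4.58-fold, list 2).

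MYC, the growth regulator at 127735434 to 127742951 of chromosome 8, had no peak within 100 kb in list 1 and 3 in list 2. The nearest list 2 centre was 52746.5 bp away, in a peak 6658 bp wide with 412 tags, 2.78-fold and an FDR of 25.23%. That peak held the most tags of all peaks near these genes and had the lowest fold. It and the peak of 96 tags and 3.7-fold lay in PVT1, a long non-coding RNA gene. The third, at 127668140 to 127671420, had 206 tags, 4.74-fold and an FDR of 1.81%. The 100 kb limit bore on MYC, because the nearest list 1 peaks were 108438.5 and 111020.5 bp away with 77 tags at 4.71-fold and 123 tags at 4.05-fold, and the second of these was a shared peak. Just inside the limit was the list 2 peak 98195.5 bp from the gene.

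**Figure D4:**
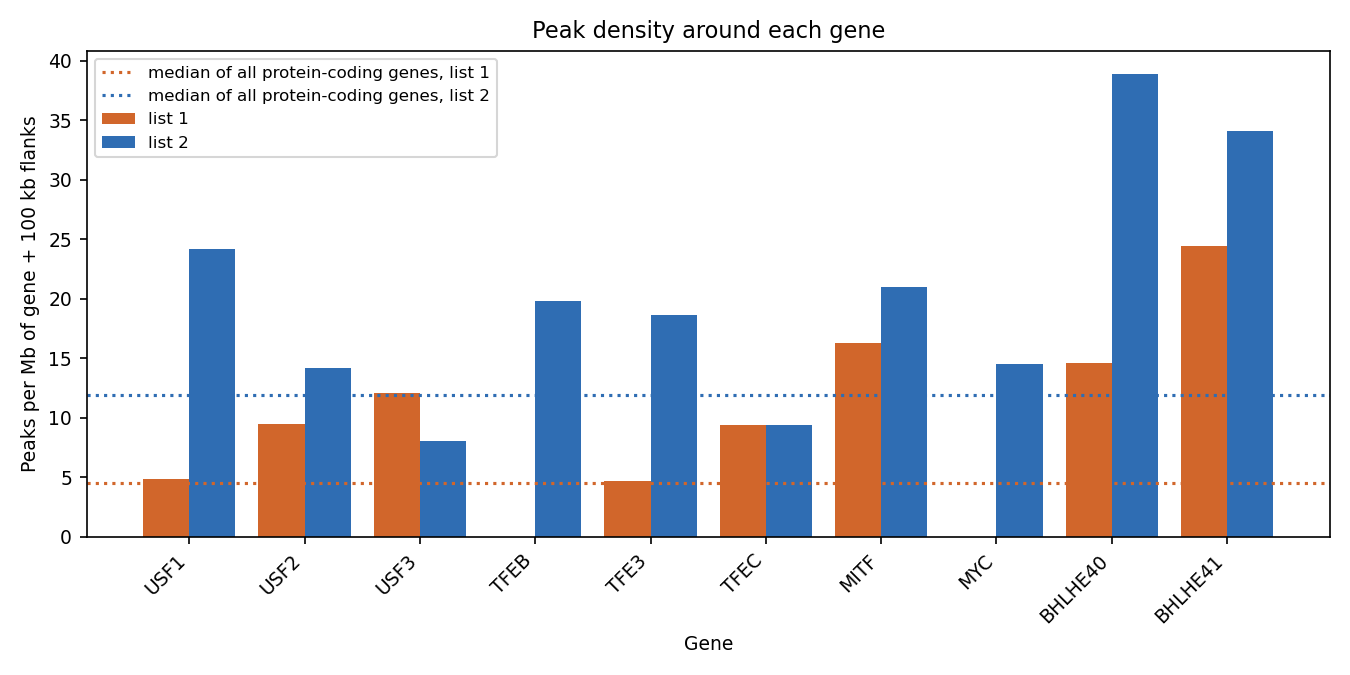
Peaks per Mb of the gene with its 100 kb flanks, in list 1 (orange bars) and list 2 (blue bars), with dotted lines at the median of 20033 protein-coding genes (4.56 and 11.9). BHLHE40 and BHLHE41 are the 2 highest in list 2, at 38.9 and 34.1, and TFEB and MYC have none in list 1.

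Peak density, which takes the length of the gene into account, was above the median of all genes at 8 of the 10 in each list. In list 1, USF1 (4.84 per Mb) and TFE3 (4.66 per Mb) were above it with 1 peak each. The median number of peaks over all genes was also 1 in list 1. The median over the 10 genes was 9.45 peaks per Mb in list 1 and 19.2 in list 2, against 4.56 and 11.9 over all protein-coding genes. TFEB and MYC were below the median in list 1, and USF3 and TFEC in list 2. The median distance from a gene to its nearest peak was 38536 bp in list 1 and 0 in list 2 over the 10 genes, against 41628 bp and 3265 bp over all genes.

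Many of the peaks assigned to the 10 genes had an end of another protein-coding gene nearest to their centre. This was so for 11 of the 26 in list 1 and 22 of the 50 in list 2. These counts and those below have no share over all peaks beside them. In list 1, 2 of the 26 lay within 1 kb of an end of the assigned gene, 3 within 1 kb of the end of another protein-coding gene and 21 farther from any. In list 2 the numbers were 5, 11 and 34 of 50. The peaks within 1 kb of another gene in list 1 were those at PFDN2, ATP6V1A and OTUD5 described above, and all 3 were shared.

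Related genes from lists written by hand carried 5' or 3' end peaks as follows. Of 15 genes of the MAX and MLX network and the SREBF genes, 6 had a shared peak within 1 kb of an end, led by MAX, the partner of MYC (16.25-fold in list 1 and 15.24-fold in list 2), MLX (13.36 and 12.47), MGA (10.42 and 14.04) and SREBF2 (6.25 and 12.1). Of 19 genes that act upstream of the MiT/TFE factors, 9 had one. RRAGB and RRAGC, Rag GTPases of the nutrient-sensing complex, had folds of 28.04 and 33.29 and of 14.72 and 19.22. The lysosomal channel gene MCOLN1 had 25.96 and 40.65, and LAMTOR4, a part of the Ragulator scaffold, 9.78 and 10.07. Of 15 clock genes, 6 had one, with NR1D2 at 8.15 and 13.34, PER3 at 6.25 and 10.98, DBP at 6.25 and 9.47 and NR1D1 at 11.82 and 5.08. These stood beside 2 of 10 here and 11.5% of all genes, and no test of a difference between the lists was made. In list 1 the FDR was 100% at PER3 and DBP, 23.22% at LAMTOR4, 15.56% at SREBF2 and 7.45% at NR1D1. It was at most 5% at the other related genes named in this paragraph.

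MAX thus had a shared peak at its end and MYC, its partner, had no peak within 50 kb in either list. A nearer peak than that of MYC was found at 69.7% of genes in list 1 and at 78.5% in list 2. RRAGB and MCOLN1 had tall shared peaks, while the 4 MiT/TFE genes had no shared peak at an end. Across all genes 11.5% had a shared end peak, so lacking one was common. The lists of related genes were chosen with earlier results of these data known. The genes named from them were picked by fold, so these contrasts are descriptions only. The folds at the 5' ends were 4.36 and 8.94 at BHLHE40 and 4.19 and 5.87 at BHLHE41. Related genes with a shared end peak ran in list 1 from 3.6-fold at MNT to 28.04-fold at RRAGB. In list 2 they ran from 4.13-fold at PPP3CB to 40.65-fold at MCOLN1. In list 1 both members stood near the low end, with only MNT below BHLHE41 and only MNT and CRY1 (4.21) below BHLHE40. In list 2, MXD4 (4.68), PPP3CB, NR1D1 (5.08) and CLOCK (5.22) were below BHLHE41. BHLHE40 there lay between PPP3R1 (8.31) and FLCN (9.45). Input tags are not given peak by peak in either list, so no test between libraries was possible and every value is set beside its counterpart in the other list as the measure of spread.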

How the data were processed

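Tagged USF1 was precipitated from Huh7 chromatin, and IP and input DNA were sequenced as paired-end reads per the labels' protocols. The peak caller was MACS 1.4.2 (p cutoff 1e-05), run on each IP against the input of its number, with 1 tag kept per position, per the file headers. Kept tags numbered 47165647 (IP 1), 46345938 (input 1), 43942638 (IP 2) and 43562726 (input 2), per the file headers. Bowtie2, deepTools, HOMER and GRCh38 appear without a role per the submitters' processing notes.

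Tags are an unscaled count of IP reads in the peak, as deposited. The deposited fold is a ratio to the expected background. The score, as deposited, equals log10 of the Poisson p multiplied by minus 10. The deposited FDR is a percent. Intervals cover counting error only.

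Gene positions, strands and promoter sequences came from RefSeq tables of GRCh38.p14. The 10 genes, the 3 lists of related genes and the alternatives were chosen with earlier results of these data known, and the count over promoter windows was added after the peaks were seen. Named were the 10 genes, the gene end nearest to a peak, and up to 4 genes of each list by the lower of the 2 folds. Other genes of these lists were named only to place the folds of BHLHE40 and BHLHE41. Overlaps, distances and counts were computed in Python 3.11.15 with numpy 2.4.6 and pandas 2.3.3, intervals with statsmodels 0.14.6, and figures with matplotlib 3.10.9. The distance, count and overlap functions were tested on simulated peaks. No statistical test between lists was made. Alternatives were peak summits, stricter thresholds, other distances, other overlap rules, other E-box forms and each list alone.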

Additional observations from a re-analysis of the deposited data

How the results depend on the processing

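Of 65 alternative values over 9 results, 24 stayed within 1.5 times the main count (or within its spread) and 41 did not. The main counts were 8 and 10 genes with a peak within 100 kb in lists 1 and 2, 7 with a shared one, 2 with a shared one within 1 kb of a gene end, and 26, 50 and 13 peaks (list 1, list 2, shared). At a fold of at least 8 these became 3, 5, 0, 0, 3, 6 and 0. At an FDR of at most 5%, list 1 and the shared classes had 0 genes and 0 peaks, and list 2 had 17 peaks. At a score of at least 100, genes with a shared peak were 2 (USF3 and BHLHE41), those with one at a gene end 0, and peaks 6, 14 and 2. Within 50 kb, genes with a shared peak were 4, and peaks 16 in list 1 and 27 in list 2. Within 10 kb there were 4 genes in list 1, 3 with a shared peak, and 11, 19 and 6 peaks. Inside genes there were 3, 6 and 2 genes and 7, 10 and 2 peaks.

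The 2 genes with a shared peak at a gene end became 1 with summits in place of centres or within 500 bp (BHLHE40), and 1 with an overlap of at least 50% of each peak or with summits within 100 bp (BHLHE41). Promoter windows overlapped in both lists, added once the data had been seen, gave 2. Leaving out a replicate, so that the other list stands alone, gave 2 to 5 genes with a peak at a gene end, 8 to 10 genes within 100 kb and 26 to 50 peaks. The median nearest distance, averaged over the lists, went from 19268 bp to 60314 bp with shared peaks only. The share of promoter windows with the E-box went from 13.3% to 0% for the 8-letter forms. The causes were not tested. No paired analysis was possible because IP and input of a number were already joined by the caller, and input tags by peak are not given.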
